A study of Mus musculus with 40 samples.

Results

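The comparison described here set colonic epithelial cells of mice sampled 3 days after inoculation with Tritrichomonas musculis (T.mu), a flagellate protozoan that lives in the mouse gut, against those of mice sampled on the same day without inoculum. It rests on 6 of the 40 libraries of the study, chosen by tissue, day and inoculum from the sample labels, and on every mouse gene of the count table. The T.mu group held 3 libraries from mice given 2000000 sorted T.mu, and the control group held 3 libraries from mice given none. Each group had 1 library from each of 3 litters, numbered 1 to 3, and libraries are named here by that number. The study also sampled epithelium at days 14 and 48 and total colonic tissue on the same days, and both are used below only where they are set beside day 3. The strain, sex and age of the mice and the method of isolating the epithelial cells are not given in the sources used here.

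The colonic epithelium is a single layer of absorptive colonocytes, mucus-secreting goblet cells, enteroendocrine cells and tuft cells that stem cells at the crypt base renew. Interferons act on such cells in a relay. Type I interferons bind a receptor of Ifnar1 and Ifnar2, and type III interferons, to which gut epithelium is known to respond, bind a receptor containing Ifnlr1. Both receptors activate a transcription factor complex that contains Stat2 and Irf9 and binds interferon-stimulated response elements in promoters. The target genes include oligoadenylate synthetases, the ubiquitin-like modifier Isg15, proteins that bind foreign RNA, and Irf7, which amplifies the response.

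Promoter stretches are shown for 7 interferon pathway genes that were higher with T.mu, because 9 of the 16 such genes with a promoter in the RefSeq table carried a match to the response element. Each stretch is the 150 bases before the RefSeq gene start in mouse build GRCm38.p6, written 5′ to 3′ on the strand of the gene. Capitals mark matches to the motif GAAANNGAAA or, on the opposite strand, its reverse complement. Irf7 is shown as a gene with no match.
Isg15 (chr4:156200819-156200968, minus strand): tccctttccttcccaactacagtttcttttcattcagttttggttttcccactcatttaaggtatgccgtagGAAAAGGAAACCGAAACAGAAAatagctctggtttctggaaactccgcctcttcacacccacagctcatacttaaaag
Oas3 (chr5:120777660-120777809, minus strand): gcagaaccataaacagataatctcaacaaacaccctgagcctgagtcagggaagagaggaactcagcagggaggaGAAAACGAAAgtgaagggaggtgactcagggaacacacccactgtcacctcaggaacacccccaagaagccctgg
Oas1a (chr5:120907526-120907675, minus strand): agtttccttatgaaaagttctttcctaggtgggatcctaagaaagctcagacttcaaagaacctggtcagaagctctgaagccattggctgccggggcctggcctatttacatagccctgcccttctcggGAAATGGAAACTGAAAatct
Ddx60 (chr8:61927937-61928086, plus strand): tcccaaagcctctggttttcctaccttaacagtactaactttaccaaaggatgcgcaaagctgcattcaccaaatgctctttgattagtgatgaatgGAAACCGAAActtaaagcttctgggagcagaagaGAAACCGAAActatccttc
Ifit1 (chr19:34640739-34640888, plus strand): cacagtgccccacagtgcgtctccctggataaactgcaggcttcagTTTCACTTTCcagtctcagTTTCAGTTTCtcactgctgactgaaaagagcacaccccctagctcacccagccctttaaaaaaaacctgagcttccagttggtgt
Lgals9 (chr11:78984925-78985074, minus strand): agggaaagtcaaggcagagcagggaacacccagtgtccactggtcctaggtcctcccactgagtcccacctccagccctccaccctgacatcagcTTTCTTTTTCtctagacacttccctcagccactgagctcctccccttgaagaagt
Irf7 (chr7:141266425-141266574, minus strand): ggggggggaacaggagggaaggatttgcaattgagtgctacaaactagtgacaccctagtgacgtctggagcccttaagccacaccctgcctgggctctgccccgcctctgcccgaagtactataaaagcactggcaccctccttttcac
The search covered 300 bases, 250 before and 50 after each RefSeq start, on both strands, and a gene with several starts was counted once. The motif was present in 56.2% of these 16 genes, in 3.75% of the 7841 genes tested in epithelium that had a promoter in the table, and in 3.99% of all 27025 genes in the table. The 16 were drawn from lists of interferon pathway genes, so a high share may follow from that choice alone. The share among list genes that were not called was not measured, so these shares do not tie the motif to T.mu. None of 12 other higher genes and none of 2 lower genes with a promoter in the table carried it. Those sets are too small to tell 0 from 3.75%. The gamma-activated site, searched as TTCNNNGAA, was in 3 of the 16 (18.8%) and in 8.3% of the tested genes. Isg15 carried 3 overlapping matches between 78 and 57 bases before its start, and Oas1a carried 2 overlapping ones between 20 and 5 bases before it. A match is a run of letters and not a measured binding site, and a gene without one lacks only these letters in this window.

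**Figure D1:**
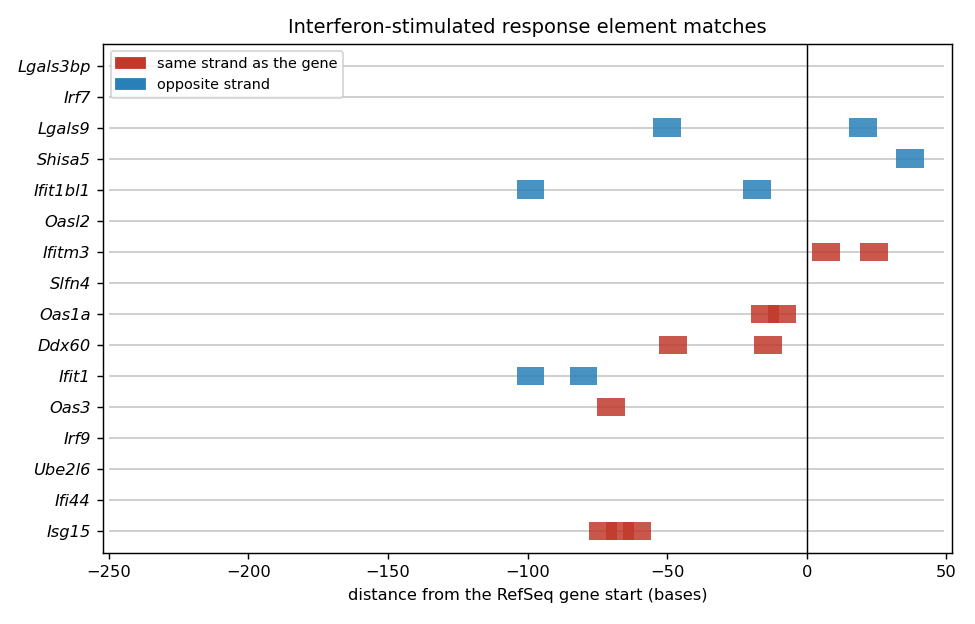
Positions of response element matches (boxes, 10 bases wide) in the promoters of the 16 interferon pathway genes called higher that had a promoter in the RefSeq table, against the distance in bases from the RefSeq gene start; red boxes are on the strand of the gene and blue boxes on the opposite strand. Boxes appear for 9 of the 16 genes, and a gene with several starts has its matches drawn from each.

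Depth was uneven. Total counts were 844256, 311683 and 1242619 in T.mu libraries 1 to 3, and 327141, 670939 and 170297 in control libraries 1 to 3. The epithelial markers Epcam, Cdh1, Krt8, Vil1 and Lgals4 were counted in all 6 libraries. Epcam overlapped, at 718 to 1121 CPM with T.mu and 776 to 945 CPM in controls, as did Cdh1, whereas Krt8 was at 1736 to 2857 CPM with T.mu and 964 to 1598 CPM in controls. Vil1, at 274 to 391 CPM with T.mu and 178 to 218 CPM in controls, and Lgals4, at 2466 to 3674 CPM with T.mu and 1821 to 2350 CPM in controls, did not overlap either. Summed over 20 pan-epithelial genes, levels were 13346 to 17750 CPM with T.mu and 10474 to 12588 CPM in controls, and the part of this in the results below was not tested. None of the 20 passed. Their median log2 fold change was 0.47, against 0.06 over all genes tested. Of the 20, 7 had every T.mu library above every control, which held for 7.6% of all genes tested. The leukocyte gene Ptprc had 2, 0 and 2 counts with T.mu and 8, 2 and 2 counts in controls. That is 0 to 2.31 CPM with T.mu and 3.51 to 25.0 CPM in controls, and it did not pass. Cd79a of B cells had no count in any of the 6. Yet 18 B and plasma cell genes summed to 109 to 280 CPM with T.mu and 149 to 181 CPM in controls. For 25 fibroblast and matrix genes the sums were 271 to 508 CPM with T.mu and 194 to 333 CPM in controls. Summed over 26 macrophage and dendritic cell genes, levels were 38.1 to 76.5 CPM with T.mu and 31.3 to 64.9 CPM in controls. Mitochondrially encoded RNA took 12.1% to 23% of counts with T.mu and 29% to 34.1% in controls, without overlap. Across genes, which are not independent replicates, log2 fold change and GC content had a Spearman correlation of 0.35. Levels are TMM-scaled CPM over the mouse genes, and a gene is called where its adjusted p from edgeR's quasi-likelihood test is under 0.05.

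At day 3, 33 of 10119 genes tested were higher with T.mu (0.326%) and 3 were lower (0.0296%), or 36 in either direction (0.356%). All 36 had T.mu libraries entirely above or entirely below the controls, which held for 7.6% of all genes tested on the higher side and 4.6% on the lower side. An unadjusted p under 0.05 was reached by 1117 genes (11%). Of the 33 higher genes, 19 belonged to 8 lists of interferon pathway genes. The other 14 were Ly6e, Rnf213, Gstm3, Hbb-bs, Neu1, Spns1, Rogdi, 1500009L16Rik, Rangap1, Pebp1, Vars, Wdr18, Uqcrc1 and Plpp2. The count of 33 became 17 without control library 1 and 21 without control library 3, 10 without the 3 libraries under 400000 counts, 11 with these 6 libraries fitted alone and 5 with limma voom.

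The 8 lists, which run from signalling factors to effectors and leave out ligands, receptors, GTPases and antigen presentation, named 104 genes, of which 99 were in the table and 78 could be tested. Of these 78, 19 were higher, none was lower and 59 did not pass, whereas 0.326% of all genes tested were higher. A fold change above 0 was found for 69 of the 78 and for 5433 of all 10119 genes. The median log2 fold change of the 78 was 1.25 (1.24 with genes that had no control count set to their lower bound), against 0.06 over all genes tested. The lists were chosen with earlier results of these data known, so these contrasts with all genes may in part follow from that choice. Summed over the lists, levels were 4488, 4755 and 4521 CPM in T.mu libraries 1 to 3, and 1821, 1857 and 1893 CPM in control libraries 1 to 3. The controls were close to each other, and every T.mu library held more than any control. The 19 became 12 without control library 1. Since whole preparations were measured, more RNA per cell and more cells with such RNA cannot be told apart.

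**Figure D2:**
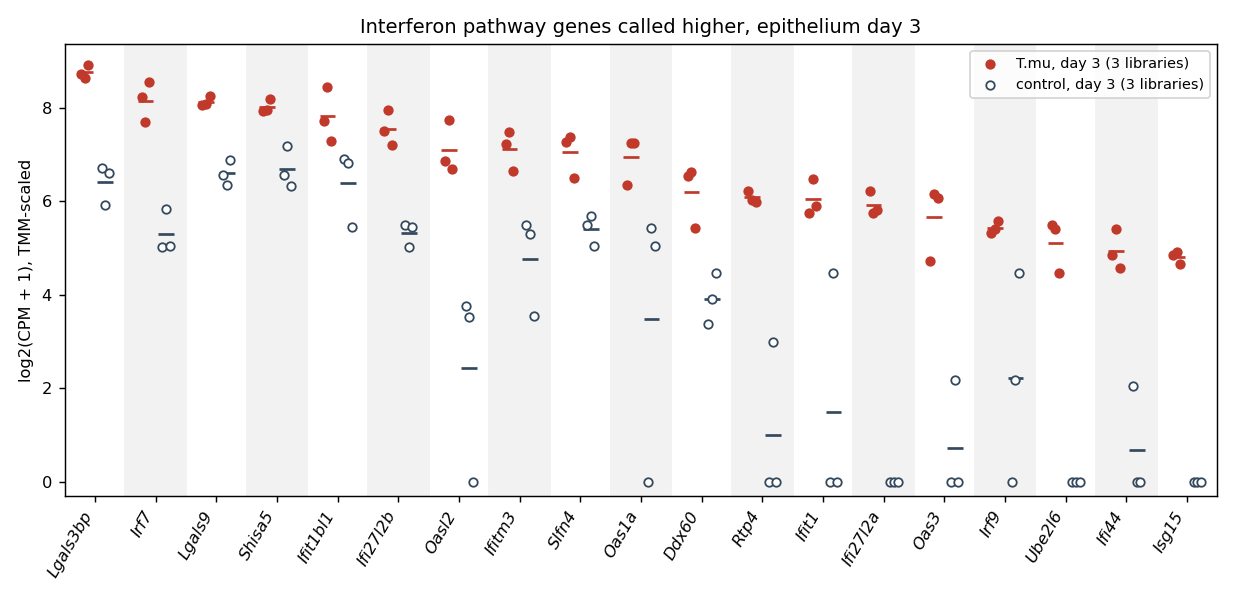
Level of the 19 interferon pathway genes called higher, as log2(CPM + 1), for each of 3 T.mu libraries (filled, left) and 3 control libraries (open, right) of epithelium at day 3, with short lines at the group means of the log2 values. Every T.mu library lies above every control for each gene, and 3 genes, Ifi27l2a, Ube2l6 and Isg15, have no count in any control.

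Interferon genes themselves were hardly counted. Of 14 listed ligands and receptors, 7 had no count in any of the 6 libraries and 4 could be tested, none of which passed. Ifnb1, Ifnl2, Ifnl3 and Ifng, the genes of interferon beta, lambda and gamma, were at 0 in all 6. At a floor of 3 counts this allows a level of up to 1.23 CPM over the T.mu libraries and 2.78 CPM over the controls. The limits are higher if counts come in pairs, where the floor is 6 counts. Ifna4, an interferon alpha gene, had 2 counts in control library 3 and none in the others. The type I receptor gene Ifnar1 was at 4.62 to 21.1 CPM with T.mu and 8.77 to 28.2 CPM in controls (log2 -0.45 ± 0.62, adjusted p = 0.847). The type III receptor gene Ifnlr1 had 12 counts with T.mu and 2 counts in controls and was not tested.

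Among 14 tested signalling factors, 2 were higher and none lower, with a median of 0.53. Irf7, the amplifying transcription factor, was at 298, 206 and 372 CPM with T.mu and 31.3, 56.1 and 31.9 CPM in controls. Its lowest T.mu library stood well above its highest control (log2 2.80 ± 0.33, adjusted p = 9e-08). Irf9, the DNA-binding partner of Stat2, was at 39.2, 41.2 and 47.1 CPM with T.mu and 0, 3.51 and 21.3 CPM in controls. Irf9 passed (log2 2.85 ± 0.64, adjusted p = 0.0162). Its control levels rest on few counts in libraries of low depth, so their wide spread lies near the counting floor. The call ended without control library 1 (adjusted p = 0.167), control library 2 (0.109) or T.mu library 3 (0.0623). Stat2 did not pass, at 26.5 to 31.7 CPM with T.mu and 0 to 18.8 CPM in controls (log2 1.89 ± 0.68, adjusted p = 0.271).

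Of 12 tested sensors of foreign nucleic acid, 1 was higher and none lower, with a median of 0.72. Ddx60, a helicase known to promote antiviral RNA sensing, was at 92.3, 97.1 and 42.2 CPM with T.mu and 9.39, 14.0 and 21.3 CPM in controls. The groups did not overlap (log2 2.40 ± 0.49, adjusted p = 0.0054), though the call ended without control library 1 (adjusted p = 0.0718). Dhx58, which encodes the regulator of RNA sensing LGP2, had a fitted log2 fold change of 3.30 ± 1.05 and did not pass (adjusted p = 0.201). Zbp1, a sensor of left-handed nucleic acid, was at 38.1 to 47.1 CPM with T.mu and 14.0 to 21.3 CPM in controls and did not pass (adjusted p = 0.299).

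Oligoadenylate synthetases are enzymes that respond to double-stranded RNA by making a short oligoadenylate messenger. Of 7 tested members of this list, 3 were higher and none lower, with a median of 2.89 (2.52 with Oas2 at its bound). Oasl2, a synthetase-like relative, was at 115, 212 and 102 CPM with T.mu and 12.5, 10.5 and 0 CPM in controls (log2 3.91 ± 0.50, adjusted p = 3.62e-07). Oas3 was at 25.4, 70.6 and 66.6 CPM with T.mu, against 0, 3.51 and 0 CPM in controls. That is 128 counts with T.mu and 2 in controls, a ratio of 28.3 with a 95% counting interval of 7.68 to 236. Oas1a was at 80.8, 150 and 152 CPM with T.mu and 0, 42.1 and 31.9 CPM in controls (log2 2.26 ± 0.45, adjusted p = 0.0054), and its call ended without control library 1 (adjusted p = 0.0605). Oas1a belongs to a cluster of close copies among which reads may be split. Oas2 was at 15.4 to 17.7 CPM with T.mu and had no count in controls, and did not pass (adjusted p = 0.121).

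Isg15 is attached to other proteins by a dedicated enzyme cascade. Of 6 tested genes of this system, 2 were higher and none lower, with a median of 2.28 (2.06 with bounds). Isg15 was at 27.7, 29.4 and 24.4 CPM with T.mu and had no count in controls, or 64 counts against 0, so it was at least 9.43-fold higher (at least 4.72-fold if counts come in pairs). Ube2l6, the conjugating enzyme of the cascade, was at 43.9, 41.2 and 21.1 CPM with T.mu and had no count in controls, or 78 counts against 0 and at least 11.5-fold higher (5.75-fold if in pairs). Both calls rest on empty controls of low depth, and that of Isg15 ended without control library 2 (adjusted p = 0.0054 with all libraries and 0.0566 without it). Herc6, the ligase of mouse, did not pass (adjusted p = 0.363), nor did the activating enzyme gene Uba7 (adjusted p = 0.559).

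Among 7 tested Ifit and Ifi44 genes, 3 were higher and none lower, with a median of 1.84. Ifit1, which binds RNA lacking the host cap structure, was at 53.1, 88.3 and 58.5 CPM with T.mu and 0, 21.0 and 0 CPM in controls (log2 2.64 ± 0.56, adjusted p = 0.00807). Ifi44 had 66 counts with T.mu and 1 in controls, a ratio of 29.2 with a 95% counting interval of 5.06 to 1170. Ifit1bl1, a relative of Ifit1, was at 210, 347 and 156 CPM with T.mu and 119, 112 and 42.5 CPM in controls (log2 1.27 ± 0.31, adjusted p = 0.0465). The call of Ifit1 ended without control library 1 (adjusted p = 0.102) or 3 (0.0574), that of Ifi44 without control library 2 (0.0824), and that of Ifit1bl1 without any single library but T.mu library 3, at adjusted p up to 0.2. The Ifit genes are neighbouring copies, and reads may be split among them.

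Ifi27l2a and Ifi27l2b encode small interferon-induced membrane proteins and are neighbours of similar sequence, so their split of reads is uncertain. Ifi27l2b was at 181, 247 and 145 CPM with T.mu and 43.8, 31.6 and 42.5 CPM in controls (log2 2.3 ± 0.32, adjusted p = 2.26e-06). Ifi27l2a was at 73.9, 53.0 and 55.2 CPM with T.mu and had no count in any control. With 150 counts against 0 it was at least 22.1-fold higher (at least 11.1-fold if counts come in pairs; adjusted p = 1.13e-05). The third tested member, Ifi27, overlapped between the groups (log2 0.16 ± 0.60, adjusted p = 0.951).

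Of 5 tested membrane restriction factors, 2 were higher and none lower, with a median of 2.02. Rtp4, a chaperone of membrane receptors, was at 73.9, 64.7 and 62.5 CPM with T.mu and 0, 7.01 and 0 CPM in controls (log2 4.18 ± 0.66, adjusted p = 6.6e-05). Ifitm3, which blocks viral fusion in endosomes, was at 148, 177 and 99.1 CPM with T.mu and 43.8, 38.6 and 10.6 CPM in controls (log2 2.02 ± 0.39, adjusted p = 0.00218). Both stood clear of every control. Bst2, which tethers budding virus at the cell surface, had 54 counts with T.mu and 1 in controls and did not pass (adjusted p = 0.0553).

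The remaining list of interferon-stimulated genes had 4 higher and no lower among 25 tested, with a median of 1.24. Lgals3bp, a secreted glycoprotein bound by galectins, was at 422, 397 and 482 CPM with T.mu and 103, 59.6 and 95.7 CPM in controls (log2 2.38 ± 0.29, adjusted p = 9e-08). Lgals9, which encodes galectin-9, was at 265, 271 and 305 CPM with T.mu and 93.9, 80.7 and 117 CPM in controls (log2 1.57 ± 0.28, adjusted p = 0.000863). For both genes every T.mu library stood well above every control. Shisa5 was at 242, 247 and 289 CPM with T.mu and 93.9, 144 and 79.8 CPM in controls (log2 1.24 ± 0.28, adjusted p = 0.0151). Slfn4, a Schlafen gene, was at 154, 165 and 89.3 CPM with T.mu and 43.8, 50.9 and 31.9 CPM in controls (log2 1.59 ± 0.39, adjusted p = 0.0387). The call of Shisa5 ended without control library 1 (adjusted p = 0.105), control library 3 (0.106) or T.mu library 3 (0.093), and that of Slfn4 without any single library but T.mu library 3, at adjusted p up to 0.146. Mx1, a dynamin-like antiviral GTPase, had no count with T.mu and 2 counts in controls, and no direction can be read from it; it is named here after its values were seen.

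Of the 19 interferon genes called, 10 kept their call whichever of the 6 libraries was left out. They were Irf7, Lgals3bp, Oasl2, Ifi27l2b, Ifi27l2a, Rtp4, Oas3, Lgals9, Ube2l6 and Ifitm3. With libraries thinned to the depth of the smallest, 10 of the 19 were called.

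No gene of antigen presentation or of the interferon-inducible GTPases was called under the main settings. None of 21 tested MHC class I and immunoproteasome genes passed, although 20 of 21 had a fold change above 0, as 5433 of all 10119 genes did. Their median was 0.79, and 7 had every T.mu library above every control, against 7.6% of all genes. H2-T23, a nonclassical class I gene, was at 140, 82.4 and 229 CPM with T.mu and 18.8, 57.9 and 53.2 CPM in controls (log2 1.82 ± 0.48, adjusted p = 0.124), and it passed with the litter as a block (adjusted p = 0.0162, or 0.017 within day), with DESeq2 (0.0321), with no filter on low counts (0.000113) or without T.mu library 2 (0.0404). B2m, the light chain of class I molecules, did not pass (log2 0.77, adjusted p = 0.275), but passed with no filter (0.0453) and with the litter block and the correction for GC content and length (0.00224). H2-D1, a classical class I gene, was at 567, 465 and 772 CPM with T.mu and 291, 377 and 319 CPM in controls (log2 0.87 ± 0.26, adjusted p = 0.142). The class I genes are near-identical copies, and reads may be split among them. Tap1, a subunit of the peptide transporter, was at 39.2, 29.4 and 39.0 CPM with T.mu and 18.8, 3.51 and 16.0 CPM in controls (log2 1.75 ± 0.53, adjusted p = 0.174). None of 8 tested GTPases passed (median 1.25, or 1.05 with Gbp2 at its bound), with Irgm2, a regulator of vacuole-targeting GTPases, at 33.5, 67.7 and 40.6 CPM with T.mu and 12.5, 14.0 and 10.6 CPM in controls (adjusted p = 0.201). None of 6 tested MHC class II genes passed (median -0.22), and H2-Ab1 was at 4.62 to 17.7 CPM with T.mu and 0 to 6.26 CPM in controls.

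**Figure D3:**
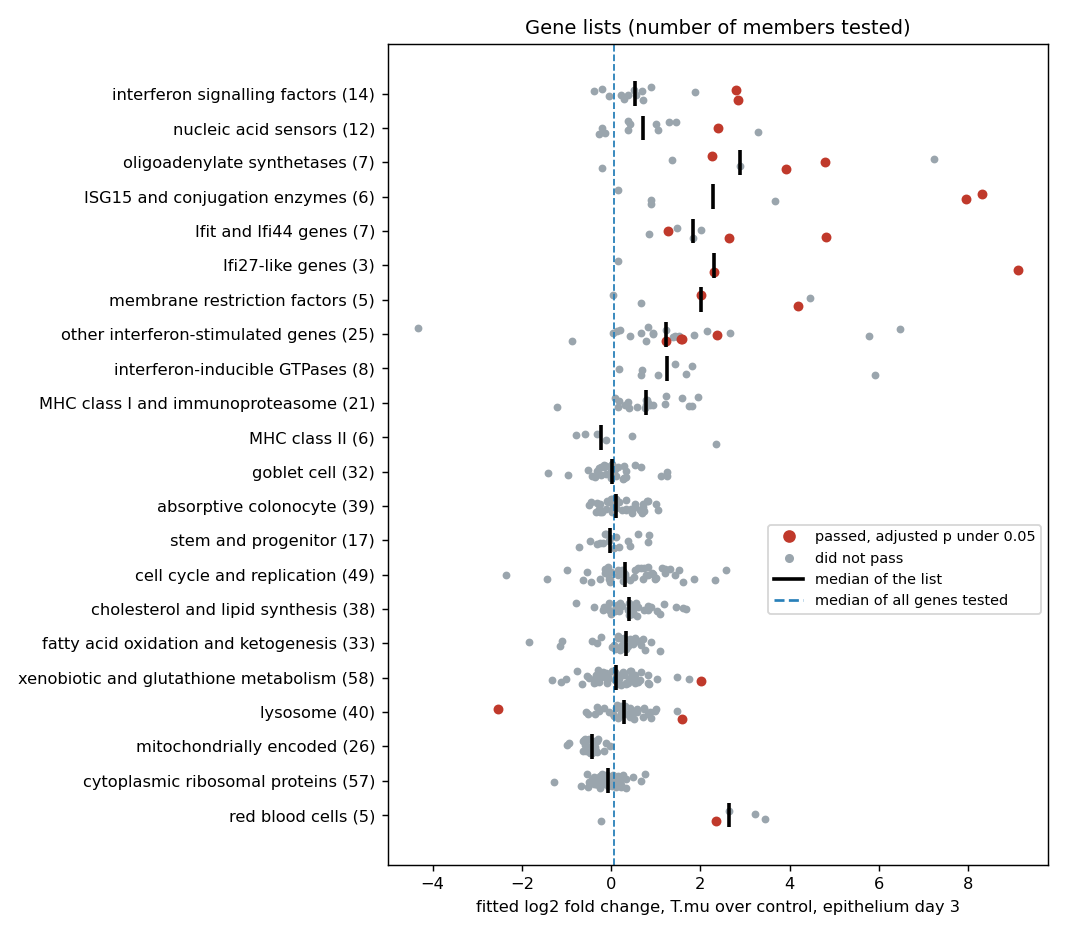
Fitted log2 fold change of T.mu over control in epithelium at day 3 for each tested member of 22 gene lists (points, one per gene, red where called), with the median of each list (black bar) and of all genes tested (dashed line, 0.06). Most called genes lie in the interferon lists at the top, and the 26 mitochondrially encoded genes all lie below 0; fitted values above about 5 belong to genes with no count in controls and have no reliable size.

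Ly6e and Rnf213 are not on the lists, although both are known as interferon-inducible. Ly6e, a lipid-anchored surface protein, was at 658, 724 and 806 CPM with T.mu and 357, 331 and 202 CPM in controls (log2 1.28 ± 0.25, adjusted p = 0.00309). Rnf213, a large ubiquitin ligase, was at 162, 215 and 130 CPM with T.mu and 50.1, 75.4 and 21.3 CPM in controls (log2 1.61 ± 0.32, adjusted p = 0.00384). For both, the lowest T.mu library was above the highest control.

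Neu1, the lysosomal sialidase, was at 120, 88.3 and 138 CPM with T.mu and 31.3, 49.1 and 31.9 CPM in controls (log2 1.58 ± 0.35, adjusted p = 0.0129). Spns1, a lysosomal lipid transporter, had 78 counts with T.mu, 60 of them in library 3, and 2 in controls, a ratio of 17.2 with a 95% counting interval of 4.62 to 145. Rogdi, a protein of the machinery that assembles the vacuolar proton pump, had 42 counts with T.mu and 0 in controls and was at least 6.19-fold higher (3.1-fold if counts come in pairs). Gstm3, a glutathione transferase, was at 91.2, 53.0 and 81.2 CPM with T.mu and 18.8, 22.8 and 10.6 CPM in controls (log2 2.02 ± 0.42, adjusted p = 0.00657). Of 58 tested genes of xenobiotic and glutathione metabolism it alone passed, and the median of that list was 0.11. Of 40 tested lysosomal genes, Neu1 was higher and Ids, described below, was lower. The list median was 0.29, against 0.06 over all genes tested, and 32 of 40 were above 0, as were 5433 of all 10119.

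Uqcrc1, a core subunit of respiratory complex III, was at 525, 512 and 838 CPM with T.mu and 156, 396 and 255 CPM in controls (log2 1.20 ± 0.29, adjusted p = 0.0424). It was the only one of 87 tested nuclear-encoded respiration genes to pass, and the median of those 87 was 0.03. Plpp2, a lipid phosphate phosphatase, was at 226, 188 and 215 CPM with T.mu and 100, 118 and 42.5 CPM in controls (log2 1.19 ± 0.29, adjusted p = 0.0432). Rangap1, the GTPase activator of nuclear transport, was at 53.1, 58.8 and 88.5 CPM with T.mu and 9.39, 17.5 and 31.9 CPM in controls (log2 1.91 ± 0.45, adjusted p = 0.0248). Vars, the valyl-tRNA synthetase, was at 55.4, 26.5 and 73.1 CPM with T.mu and 0, 12.3 and 21.3 CPM in controls (log2 2.40 ± 0.58, adjusted p = 0.0387), its lowest T.mu library close to its highest control. Wdr18, a ribosome assembly factor, was at 32.3, 41.2 and 60.1 CPM with T.mu and 6.26, 10.5 and 10.6 CPM in controls (log2 2.28 ± 0.55, adjusted p = 0.0387). Pebp1, an inhibitor of Raf kinase, had 51 counts with T.mu and 1 in controls, a ratio of 22.6 with a 95% counting interval of 3.87 to 908. The uncharacterised 1500009L16Rik had 36 counts with T.mu and 0 in controls and was at least 5.31-fold higher (2.65-fold if counts come in pairs).

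**Figure D4:**
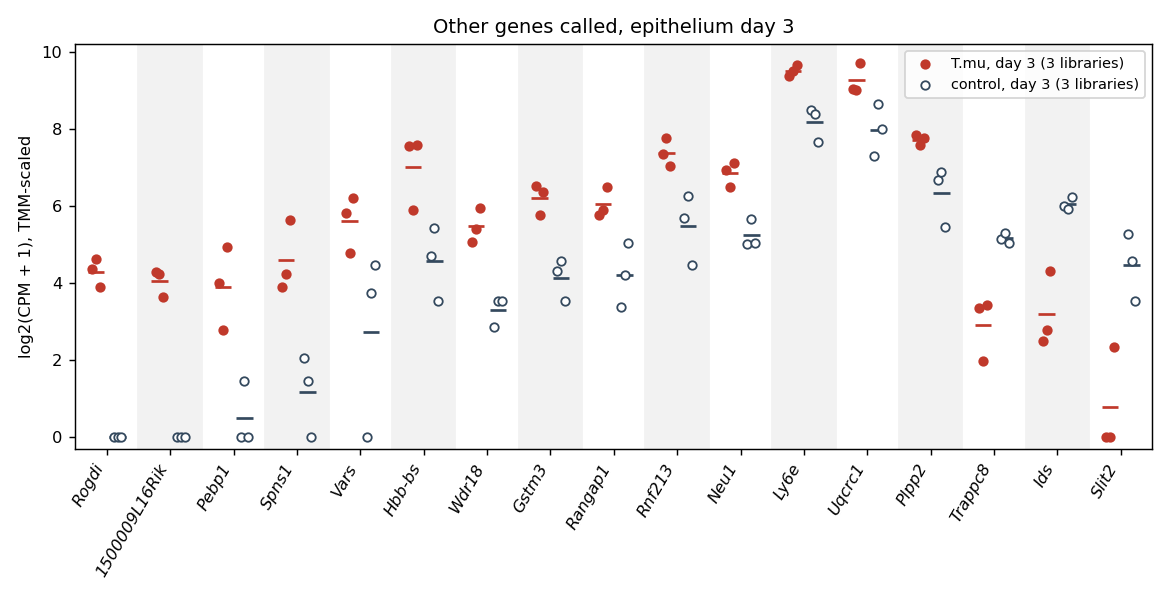
Level of the 17 genes called at day 3 outside the interferon pathway lists, as log2(CPM + 1), for each of 3 T.mu libraries (filled, left) and 3 control libraries (open, right), with short lines at the group means of the log2 values. The first 14 genes are higher with T.mu and the last 3, Trappc8, Ids and Slit2, are lower, without overlap of the groups.

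Most of these calls outside the interferon lists ended when a single library was left out. The calls of Rogdi, 1500009L16Rik, Pebp1, Spns1, Vars, Hbb-bs, Wdr18, Rangap1, Neu1, Uqcrc1 and Plpp2 each ended without control library 1, at adjusted p from 0.0742 for Spns1 to 0.271 for Uqcrc1. Those of Pebp1, Spns1, Vars, Wdr18, Rangap1 and Uqcrc1 were weakest without T.mu library 3, the deepest, where adjusted p was 0.268 to 0.395, and those of Neu1 (0.1), Plpp2 (0.135) and Hbb-bs (0.0934) ended there too. Calls of Hbb-bs (adjusted p = 0.12), Neu1 (0.0615), Plpp2 (0.189), Uqcrc1 (0.167), Pebp1 (0.106), Spns1 (0.0778), Wdr18 (0.0803), Rogdi (0.057) and 1500009L16Rik (0.0578) also ended without control library 3, the shallowest. Without control library 2, those of Rogdi, 1500009L16Rik, Pebp1, Spns1, Vars, Wdr18 and Rangap1 ended at adjusted p from 0.073 to 0.0936, and without T.mu library 1 those of Hbb-bs, Vars, 1500009L16Rik and Plpp2 at 0.0584 to 0.0944. Gstm3, Ly6e, Rnf213 and the lower gene Ids kept theirs whichever library was left out. The litter as a block across days ended the calls of Pebp1 (adjusted p = 0.0855), Wdr18 (0.0664) and Trappc8 (0.0843), and as a block within day also those of Hbb-bs (0.0717), Spns1 (0.104), 1500009L16Rik (0.058), Rangap1 (0.0542) and Vars (0.0661). Median GC content was 55.3% for the 14 other higher genes, 51.8% for the 19 interferon genes, 42.5% for the 3 lower genes and 49% for all genes tested. Over 5 equal groups of genes from low to high GC content, the median log2 fold change was -0.27, -0.13, 0.05, 0.27 and 0.43. With the litter block and a correction for GC content and length, 22 of the 36 calls were kept, 17 of them interferon genes, and among those lost were Gstm3 (adjusted p = 0.0515), Ly6e (0.142), Neu1 (0.155) and Spns1 (0.167).

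Only 3 genes were lower with T.mu. Ids, a lysosomal sulfatase that acts on glycosaminoglycans, was at 4.62, 5.88 and 18.7 CPM with T.mu and 62.6, 59.6 and 74.4 CPM in controls. The highest T.mu library held less than any control (log2 -2.52 ± 0.45, adjusted p = 0.000715). Slit2, a secreted guidance ligand of Robo receptors, had 0, 0 and 5 counts with T.mu and 12, 13 and 2 counts in controls (log2 -3.60 ± 0.79, adjusted p = 0.0135), so its call rests on few counts and ended without control library 1 (adjusted p = 0.141) or T.mu library 1 (0.11). Trappc8, a subunit of a vesicle tethering complex, was at 9.23, 2.94 and 9.75 CPM with T.mu and 34.4, 38.6 and 31.9 CPM in controls (log2 -2.09 ± 0.52, adjusted p = 0.0432). Its groups stood apart, yet the call ended when any of the 6 libraries was left out (adjusted p from 0.0778 to 0.172). None of the other 27 tested guidance ligands and receptors passed.

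Hbb-bs, an adult beta-globin gene of red blood cells, was at 187, 58.8 and 192 CPM with T.mu and 25.0, 42.1 and 10.6 CPM in controls (log2 2.35 ± 0.50, adjusted p = 0.0129). Of 5 tested red blood cell genes it alone passed. Hba-a1, Hba-a2 and Hbb-bt, the other globin genes, had fitted log2 fold changes of 3.22, 3.45 and 2.65 and did not pass (adjusted p = 0.313 to 0.323). Hba-a1 and Hba-a2 are near-identical copies, as are Hbb-bs and Hbb-bt, and reads may be split within each pair. Summed over 9 red blood cell genes with a count, levels were 292, 106 and 306 CPM with T.mu and 50.1, 77.2 and 31.9 CPM in controls. T.mu library 2, the shallowest of its group, was the nearest to the controls, and the part of blood RNA in the other calls was not tested.

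Other epithelial programmes gave no called gene apart from those named. Of 49 tested cell cycle and replication genes none passed, with 34 above 0, as were 5433 of all 10119 genes. The median of the 49 was 0.31, against 0.06 over all genes tested. Mcm2, a subunit of the replicative helicase, was at 18.5, 58.8 and 61.7 CPM with T.mu and 12.5, 10.5 and 0 CPM in controls and missed the threshold (log2 2.32 ± 0.58, adjusted p = 0.0531; 0.00824 without T.mu library 1). Krt20, a keratin of surface colonocytes, was at 181, 250 and 214 CPM with T.mu and 75.1, 146 and 85.1 CPM in controls (log2 1.01 ± 0.27, adjusted p = 0.0912; 0.0369 with the litter as a block within day and 0.0165 without control library 2). Gsdmd, the gasdermin cut by inflammatory caspases, was at 103, 100 and 145 CPM with T.mu and 43.8, 70.1 and 31.9 CPM in controls (log2 1.16 ± 0.31, adjusted p = 0.0928; 0.0336 without control library 2). These 3 genes had every T.mu library above every control, as 7.6% of all genes did. None of 39 tested absorptive colonocyte genes (median 0.11), 32 goblet cell genes (0.02), 17 stem and progenitor genes (-0.03), 14 enteroendocrine genes (0.11) or 8 tuft cell genes (0.01) passed. Nor did any of 38 genes of cholesterol and lipid synthesis (median 0.40), 33 of fatty acid oxidation and ketogenesis (0.33) or 19 of the antimicrobial response (0.33).

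The mitochondrially encoded genes lay on one side of 0 without a call. All 26 tested lay below 0 with a median of -0.42, against 4685 of all 10119 genes below 0, and 6 had every T.mu library below every control, against 4.6% of all genes. The mitochondrial ribosomal RNA gene mt-Rnr2 was at 146630, 158290 and 82597 CPM with T.mu and 255230, 287980 and 206130 CPM in controls (log2 -0.95 ± 0.35, adjusted p = 0.283). With the litter block and the correction for GC content and length it passed (adjusted p = 0.0195), as did mt-Rnr1 (0.0401). Leaving all mitochondrially encoded and ribosomal RNA genes out before scaling, a setting added after seeing the data, kept all 36 calls.

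The genes called at day 3 were also followed to the later days, each of which had its own controls. At day 14, 34 of 10119 genes were higher (0.336%) and 17 lower (0.168%), and at day 48, 28 were higher (0.277%) and 2 lower (0.0198%), or 0.504% at day 14 and 0.296% at day 48 in either direction. Of the 33 genes higher at day 3, 15 were also higher at day 14 (45.5% of the day 3 genes and 44.1% of the day 14 genes), 14 of them interferon genes and the other Ly6e. At day 48, 14 were also higher (42.4% of the day 3 genes and 50% of the day 48 genes), all interferon genes, and 12 were higher on all 3 days. All 19 interferon genes had a fold change above 0 on both later days, with medians of 2.01 at day 14 and 1.65 at day 48. The 14 other higher genes had medians of 0.69 at day 14, with 11 above 0, and 0.46 at day 48, with 13 above 0. Over all genes tested the medians were 0.008 at day 14 and 0.017 at day 48.

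Single genes showed both courses. Irf7 averaged 292 ± 83.2 CPM with T.mu and 39.8 ± 14.2 CPM in controls at day 3 (SD, n = 3 each), 177 ± 50.5 and 68.0 ± 12.4 CPM at day 14 (n = 3 each), and 131 ± 42.1 and 45.7 ± 9.16 CPM at day 48 (n = 4 each). Its log2 fold change of 2.80 at day 3 was 1.38 at day 14 and 1.53 at day 48, and the differences from day 3 did not pass (adjusted p = 0.553 and 0.61). Gstm3 had similar levels in both arms later, with 51.9 ± 11.8 CPM with T.mu and 56.4 ± 9.46 CPM in controls at day 14 (log2 -0.13 ± 0.32). Its controls were lower at day 3 than at either later day, at 17.4 ± 6.2 CPM against 56.4 ± 9.46 and 38.8 ± 7.54 CPM, a contrast between days that was not tested. Spns1 likewise had 1.63 ± 1.57 CPM in controls at day 3 and 13.9 ± 4.6 CPM in controls at day 14, and Ids had 65.5 ± 7.84 and 38.2 ± 15.3 CPM in the same controls. Only Hbb-bs differed between day 3 and day 14 by the test of the difference itself (1 of 10119 genes, 0.00988%), and 0 of 10119 differed between day 3 and day 48 (0%) with edgeR, DESeq2 or limma voom, although 545 had an unadjusted p under 0.05 with edgeR.

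**Figure D5:**
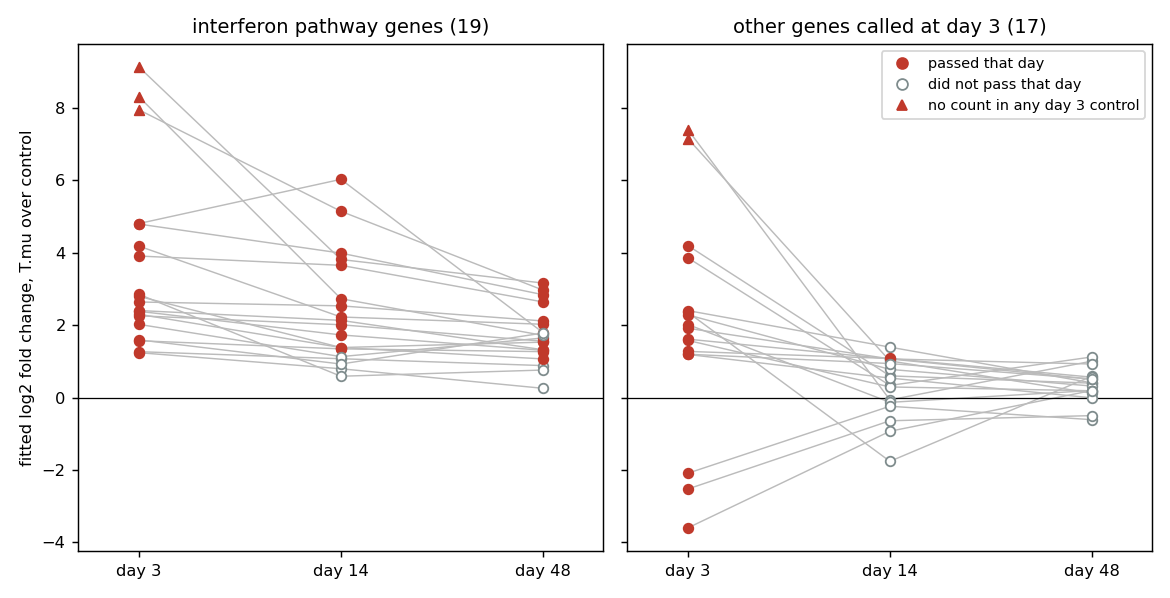
Fitted log2 fold change of T.mu over control at days 3, 14 and 48 for the 19 interferon pathway genes (left) and the 17 other genes called at day 3 (right), each line a gene, filled where called on that day and triangles where no day 3 control had a count. All 19 interferon genes lie above 0 on each day, and the only filled points of the right panel after day 3 belong to Ly6e at day 14.

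Total colonic tissue of the same day shared much of the interferon part. There 54 of 11696 genes were higher (0.462%) and 1 lower (0.00855%), or 0.47% in either direction. Of the 33 genes higher in epithelium, 17 were also higher in tissue, 51.5% of the epithelial genes and 34.7% of the 49 tissue genes that were tested in epithelium. They were 15 interferon genes with Ly6e and Rnf213. All 19 interferon genes had a fold change above 0 in tissue, with a median of 1.84, while the 14 other higher genes had a median of -0.10 with 5 above 0. Over the genes tested in epithelium, the tissue median was -0.04. By the test of the difference itself, 4 of 11834 genes had a larger T.mu effect in epithelium than in tissue (0.0338%), namely Gstm3, Irf7, Spns1 and Neu1. Irf7 was higher in both, with a log2 fold change of 2.80 in epithelium and 1.02 ± 0.18 in tissue (difference 1.85 ± 0.38 in the joint fit of both tissues, adjusted p = 0.0241). Neu1 (log2 -0.12) and Gstm3 (-0.75) did not pass in tissue. The count of 4 became 1 without control library 1 or 3 of epithelium and 72 without control library 2, so it hangs on single libraries.

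Counts on the single entry of the table that is not a mouse gene were 1750, 188 and 526 with T.mu and 16, 48 and 6 in controls. As a share of all counts of a library this was 2073, 603 and 423 CPM with T.mu and 48.9, 71.5 and 35.2 CPM in controls. Every T.mu library was above every control, with a ratio of the means of 19.9 (exact two-sided permutation p = 0.1, the smallest that 3 against 3 libraries allow), and 9.89 without T.mu library 1. What organism the entry belongs to is not given in the sources used here.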

How the data were processed

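RNA was profiled with 3′ digital gene expression libraries, per the labels' protocols. The authors deposited raw counts, as whole numbers for each gene and library. STAR and Subread are named, without a version, per the submitters' processing notes, and the genome build, annotation and strand of counting are not given in the sources used here. Of 45792 mouse gene IDs, 45143 (98.6%) have a symbol in GENCODE M21. Promoters came from RefSeq (GRCm38.p6), by symbol, for 30 of the 36 called genes. In the 6 libraries, 71.2% to 82.1% of values from 1 to 20 are even, as when both mates of a pair are counted, so intervals and floors (3 counts over a group) understate the error and cover counting error only.

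Counts of the 20 epithelial libraries in 6 groups were fitted together with edgeR 4.0.16 in R 4.3.3 (filterByExpr with minimum count 10 and total 15, TMM scaling, robust quasi-likelihood test, Benjamini-Hochberg adjustment over all genes tested, threshold 0.05). Fold changes are fitted values ± standard error, and levels are TMM-scaled CPM. Total tissue was fitted alike over its 20 libraries, and all 40 together for the difference between tissues. Where leaving libraries out left 1 in a group, its spread was taken from the other groups. On simulated data, 16 of 50 genes raised by 1 on the log2 scale and 48 of 50 raised by 2 were recovered. Of 50 lowered by 2, 40 were recovered, and there were 5 false calls. All genes altered had a mean level above 20 CPM over the epithelial libraries, so recovery of weaker genes was not tested. The simulation held no trend with GC content. DESeq2 1.42.0 and limma 3.58.1 served as alternatives. Ribosomal RNA genes and Lars2 took 32.2% to 44.0% of counts.

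The labels give a litter number for each library, which pairs T.mu and control libraries. Deviations of same-litter libraries correlated at 0.035, -0.023 and 0.061. Replicates of the main comparison differed by more than the counting error of single counts (chi-square per degree of freedom 2.94 to 12.0). If counts come in pairs, counting error is larger, and the excess over that larger error was not computed. The p-values of the main comparison rest on the spread between replicates over all epithelial libraries fitted together, not on the compared libraries alone. Members and gene lists were chosen with earlier results of these data known. Genes named are all called genes, up to 4 members per list with the smallest p, a fixed set named whatever their result, and members named as untested or without counts.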

Additional observations from a re-analysis of the deposited data

Results flagged for a closer look

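Hbb-bs, the beta-globin gene, is listed because its T.mu effect differed between days by the test of the difference. Its log2 fold change was 4.12 higher at day 3 than at day 14 (adjusted p = 0.0107, edgeR's quasi-likelihood test). It averaged 146 ± 75.4 CPM with T.mu and 25.9 ± 15.7 CPM in controls at day 3, and 7.73 ± 3.43 CPM with T.mu and 26.9 ± 4.68 CPM in controls at day 14 (SD, n = 3 each). With the litter as a block no gene differed between these days.

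At day 3 the T.mu effect was larger in epithelium than in total tissue for 4 genes. The difference in log2 fold change was 2.84 for the glutathione transferase gene Gstm3 (adjusted p = 0.00412) and 1.85 for Irf7 (adjusted p = 0.0241). It was 4.57 for the lysosomal transporter gene Spns1 (adjusted p = 0.0289), whose controls in epithelium held 2 counts, and 1.77 for the sialidase gene Neu1 (adjusted p = 0.0296).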

How the results depend on the processing

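The 33 higher genes became 5 with limma voom, 11 when the 6 libraries were fitted alone, 21 with the litter block and the correction for GC content and length, 13 with libraries thinned to the smallest and 10 without libraries under 400000 counts. Leaving out single libraries gave 17 to 47. The 3 lower genes became 8 with DESeq2, 0 with limma voom, 1 with those 6 libraries alone, 6 with the block and correction and 0 without libraries under 400000 counts, and 1 to 5 with single libraries left out. The 19 interferon genes became 4, 10, 10 and 6 with limma voom, the 6 libraries, thinning and the depth minimum, and 12 to 17 with single libraries left out. With limma voom, 296 genes below 0 had an unadjusted p under 0.05.

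The litter block across days gave 32 higher and 2 lower genes, all 19 interferon calls included, and within day 29 and 4. The 1 gene that differed between days 3 and 14 became 0 with either block, DESeq2 or limma voom (621 and 428 genes with an unadjusted p under 0.05 by DESeq2 and voom), 2 with no filter, and 0 to 1 with single libraries left out. Between days 3 and 48 the count of 0 became 1 with no filter and was 0 to 1 with single libraries left out. The 4 genes that differed between tissues became 11 with no filter, 8 with DESeq2, 0 with limma voom (1224 with an unadjusted p under 0.05) and 1 with only the libraries compared, and 1 to 72 with single libraries left out. The non-mouse ratio of 19.9 ranged from 9.89 to 25.8. The causes were not tested.

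Of the 36 calls, 14 were kept whichever library was left out and 4 (Irf7, Lgals3bp, Lgals9 and Ifi27l2b) under all 20 alternatives. RLE scaling kept 34, no filter 35, a minimum count of 20 or DESeq2 31 each, halved counts 24, and leaving out ribosomal RNA genes and Lars2 36. No direction turned among 69 genes followed. Depth ranged from 170297 to 1242619 counts, and 5 called genes had no count in controls.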
